A study of Rattus norvegicus with 12 samples.

Results

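Nlrc5, B2m and the rat MHC class I genes were followed on every probe set of the array that the platform annotation assigns to Nlrc5, to B2m, or to a class I symbol beginning with RT1-A, RT1-CE, RT1-N, RT1-S, RT1-T24 or RT1-M. These were 29 probe sets for 21 genes, out of 31042 probe sets for 14863 genes in all. Of the 29, 26 were class I probe sets for 19 genes, 2 were for B2m and 1 was for Nlrc5. The annotation gives several symbols to 6 of the class I probe sets, so that their values cannot be assigned to 1 gene.

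The cells were primary hepatocytes of Wistar rats, freed from the liver with collagenase, purified on a Percoll gradient and treated from the day after isolation. Group 1 was cultured without interferon for 3 h, group 2 with 250 U/ml rat interferon alpha for 3 h, group 3 without interferon for 6 h and group 4 with the same dose for 6 h. Each group holds 3 arrays, which the labels number 1 to 3 and call biological replicates. The labels do not say which animals or cultures the numbers stand for, so p-values measure the spread between these samples.

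The major histocompatibility complex of the rat is called RT1. A class I molecule is a heavy chain, encoded by a class I gene, joined to the light chain beta-2 microglobulin, encoded by B2m, and it displays peptides from inside the cell to CD8 T cells and natural killer cells. The RT1-A genes encode the classical heavy chains, while the RT1-CE, RT1-N, RT1-S, RT1-T24 and RT1-M genes lie in the other class I regions and are mostly regarded as non-classical. NLRC5 is a NOD-like receptor protein that binds no DNA itself and switches on class I genes, B2m and Tap1 through a complex of promoter-bound factors, and interferons are known to raise its own gene. Class I heavy chain genes are highly similar to each other and vary between animals, and a probe set whose name contains x or s may also bind transcripts of related genes, so a class I probe set is a reading of its probes and not of 1 gene alone.

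Promoter stretches are shown for 5 of these genes because the genes differ in how their probe sets behaved and in how closely they match the interferon-stimulated response element, the sequence bound by the complex of STAT and IRF9 proteins that interferon alpha activates. The sequences are RefSeq's for assembly GRCr8, written from 5′ to 3′ on the strand of the gene and ending at the last base before any annotated transcript of the gene begins, and they are those of the reference assembly and not of the animals used. The windows searched ran from 250 bases before to 50 bases after the start that RefSeq's promoter table uses for the gene, which can lie downstream of the earliest annotated transcript, and 17 of the 21 genes had one. Capitals mark a match to the element on either strand, written GAAANNGAAA, in RT1-N3, RT1-S3 and B2m, and a match to a form that is 1 base shorter, GAANNGAAA, in RT1-CE5 and RT1-A3.

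RT1-N3, chr20:2666239-2666468, plus strand: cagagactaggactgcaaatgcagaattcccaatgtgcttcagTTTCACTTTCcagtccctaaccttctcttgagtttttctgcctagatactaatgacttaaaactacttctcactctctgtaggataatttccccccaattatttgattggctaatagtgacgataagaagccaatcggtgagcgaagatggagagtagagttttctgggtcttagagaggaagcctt

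RT1-S3, chr20:2675278-2675462, plus strand: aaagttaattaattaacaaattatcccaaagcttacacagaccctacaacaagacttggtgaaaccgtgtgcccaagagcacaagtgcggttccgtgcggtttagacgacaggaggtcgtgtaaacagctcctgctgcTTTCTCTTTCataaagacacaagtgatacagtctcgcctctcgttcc

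B2m, chr3:129549080-129549235, plus strand: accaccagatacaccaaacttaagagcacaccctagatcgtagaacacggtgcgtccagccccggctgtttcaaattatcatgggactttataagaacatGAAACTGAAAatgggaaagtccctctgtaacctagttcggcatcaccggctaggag

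RT1-CE5, chr20:3484131-3484340, minus strand: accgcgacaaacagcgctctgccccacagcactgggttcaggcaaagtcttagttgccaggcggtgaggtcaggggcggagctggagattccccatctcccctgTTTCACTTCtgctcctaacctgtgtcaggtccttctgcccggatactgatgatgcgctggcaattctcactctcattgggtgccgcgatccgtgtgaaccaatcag

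RT1-A3, chr20:4849201-4849409, plus strand: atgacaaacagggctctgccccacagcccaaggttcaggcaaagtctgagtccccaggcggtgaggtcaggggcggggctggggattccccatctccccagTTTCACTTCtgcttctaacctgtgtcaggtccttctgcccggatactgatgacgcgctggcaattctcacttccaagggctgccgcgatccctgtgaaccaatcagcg

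Counted back from the end of the printed stretch, the match begins at base 187 in RT1-N3, base 47 in RT1-S3 and base 56 in B2m. The element stood in these 3 of the 17 windows, against 3.92% of the 33469 promoter windows of all genes. The shorter form, added after the sequences were seen, stood in 9 of the 17 windows (RT1-A1, RT1-A2, RT1-A3, RT1-CE5, RT1-CE10, RT1-CE11, RT1-CE13, RT1-CE16 and RT1-N2), against 8.54% of all windows. It begins at base 108 from the end of the printed stretch in RT1-A3 and at base 106 in RT1-CE5. The other 3 motifs were searched on both strands too: CCAAT, the box bound by NF-Y, stood in 14 of the 17 windows and 37.5% of all, TGACG, the core of the X2 box bound by CREB and ATF1, in 8 and 21.2%, and the gamma-activated site TTCNNNGAA in 1, that of RT1-M3-1, and 8.87%. The 5 printed genes were picked with their values known. RT1-N2 and RT1-T24-3 are not printed, though their probe sets rose at 6 h with the replicate number fitted as a block. The window of RT1-T24-3 held neither form of the element. RT1-CE5 is also among the symbols of a shared probe set that rose in that fit. A match is a description of these letters, and neither binding nor a link to the changes was tested.

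The plot of array levels shows 8 probe sets with their 12 values each. Values are log2 values of the robust multi-array average (RMA), so that a difference of 1 is a change of 2-fold, and all arrays had medians between 5.16 and 5.21. Correlations between arrays ran from 0.979 to 0.997. The labelled cell type was borne out by 9 measured hepatocyte genes with means between 11.17 and 14.67, of which Alb, the albumin gene, had 14.67.

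**Figure D1:**
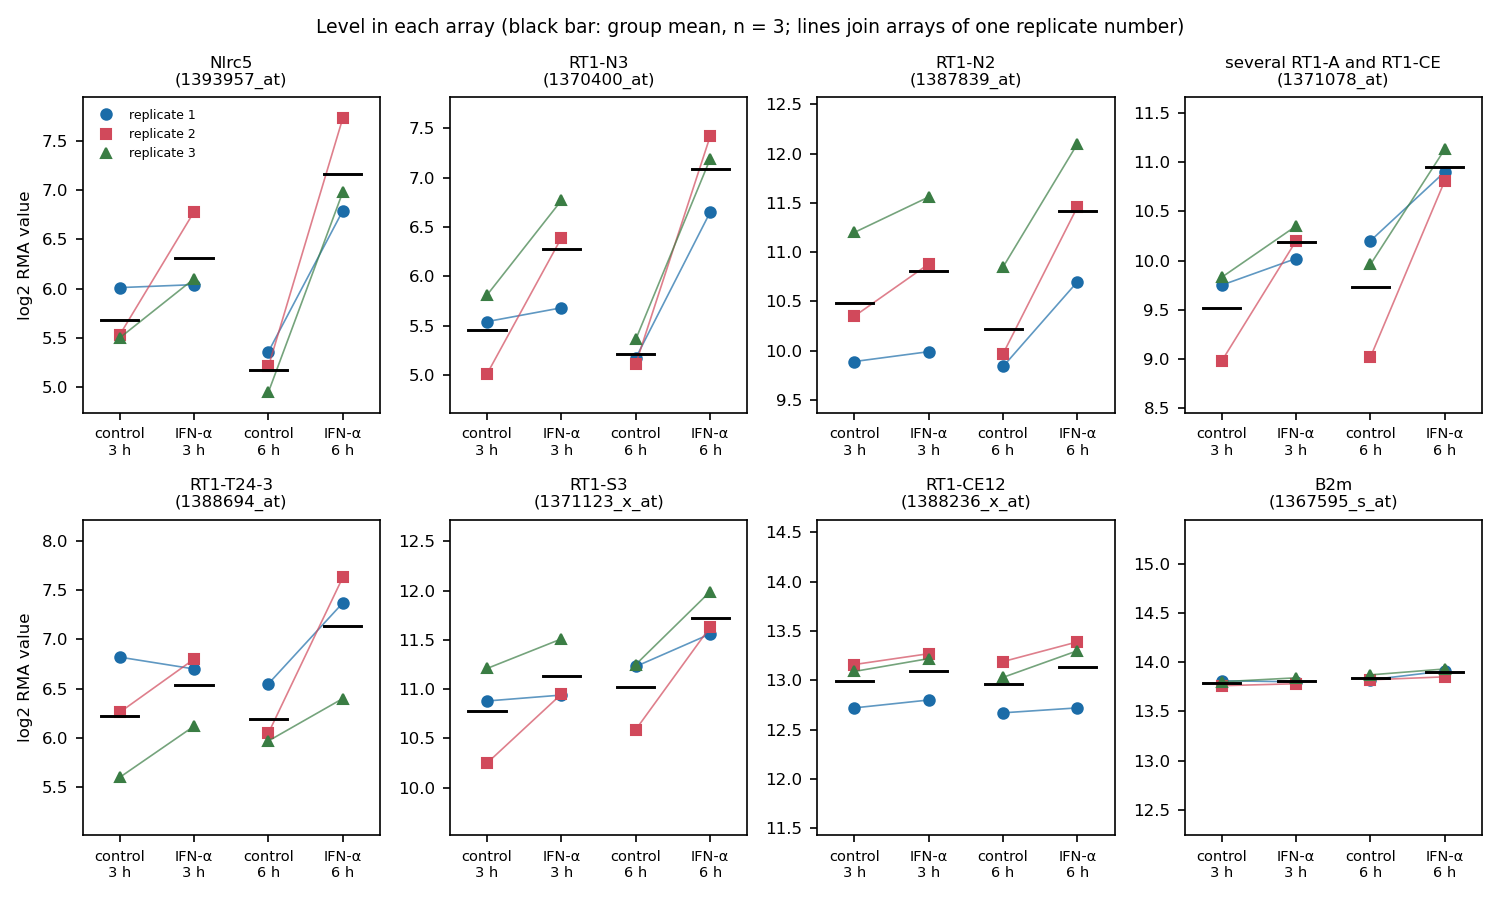
Log2 RMA value (y axis) of 8 probe sets in each of the 12 arrays, by group (x axis: control and interferon alpha, IFN-α, at 3 h and 6 h). Points are arrays, coloured by replicate number and joined within a time, black bars are means of 3 arrays, and every panel spans the same number of log2 units. Nlrc5 and RT1-N3 lie higher in all 3 treated arrays than in all 3 controls at 6 h, while B2m stays between 13.76 and 13.93.

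Nlrc5, the transactivator of the class I genes, was higher after interferon alpha at 6 h. Its probe set (1393957_at) read 5.36, 5.21 and 4.95 in the untreated arrays at 6 h (replicates 1, 2 and 3) and 6.79, 7.73 and 6.98 in the treated ones. Its values at 3 h were 6.01, 5.53 and 5.50 untreated and 6.04, 6.78 and 6.10 treated. All treated arrays lay above all controls at both times, but at 3 h replicate 1 differed by only 0.03. The rise at 6 h was 1.99 ± 0.26 on the log2 scale (SE of the limma fit over all 12 arrays), or 3.98-fold with a 95% interval of 2.65 to 5.96, and its adjusted p in limma (Benjamini-Hochberg over all 31042 probe sets) was 0.00704. At 3 h the difference was 0.63 ± 0.26, with an adjusted p of 1 in limma. The effect at 6 h minus that at 3 h was 1.36 (95% interval 0.54 to 2.19), also with an adjusted p of 1 in limma and an unadjusted p of 0.00398.

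In order of its group means, Nlrc5 stood at 5.17 ± 0.21 (SD, n = 3) in the controls at 6 h, 5.68 ± 0.29 (SD, n = 3) in the controls at 3 h, 6.31 ± 0.41 (SD, n = 3) with interferon at 3 h and 7.17 ± 0.50 (SD, n = 3) with interferon at 6 h. The controls at 6 h minus those at 3 h came to -0.50 (95% interval -1.09 to 0.08), which did not pass (adjusted p in limma 0.585). No neighbouring groups in this order overlap in their arrays, but the gaps are narrow: the highest treated array at 3 h stood at 6.78 and the lowest at 6 h at 6.79. Neither of the neighbouring pairs that were tested passed, and the comparison at 6 h spans the whole order.

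Arrays with the same replicate number deviated together from their group means, so each comparison was also fitted with the number as a block. With the block the rise of Nlrc5 at 6 h had an adjusted p of 0.000615 in limma, and the difference at 3 h one of 0.622. The rise at 6 h did not pass when only the 6 arrays of that time were fitted (adjusted p in limma 0.0508), nor with the block when replicate number 3 was left out of all groups (0.0606). With any 1 array left out it stayed between 1.71 and 2.18, with adjusted p values in limma from 0.00514 to 0.0454.

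B2m, the light chain that every class I heavy chain needs, showed no change that passed at either time. Its probe set 1367595_s_at read 13.82, 13.82 and 13.87 in the controls at 6 h and 13.91, 13.85 and 13.93 with interferon. The arrays at 3 h read 13.81, 13.76 and 13.80 untreated and 13.80, 13.78 and 13.84 treated. The 12 values lie within a narrow band and the groups overlap at both times. The difference was 0.06 ± 0.06 at 6 h, with a 95% interval of -0.08 to 0.20, and 0.02 ± 0.06 at 3 h (adjusted p in limma 1 at both times). On this probe set the upper end of the interval at 6 h is 1.15-fold. It ranked 29 of 31042 by its mean, and whether its signal could still increase at that level was not tested.

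The second B2m probe set (1371440_at) read 11.46, 11.24 and 11.03 in the controls at 6 h and 11.48, 11.40 and 11.23 with interferon. At 3 h the values were 11.17, 11.10 and 11.21 untreated and 11.18, 11.31 and 11.09 treated. Treated and control arrays overlap at both times. The difference was 0.13 ± 0.11 at 6 h (95% interval -0.12 to 0.38) and 0.03 ± 0.11 at 3 h, with an adjusted p of 1 in limma for both. Here the upper end of the interval at 6 h is 1.3-fold. The order of the group means was the same on both probe sets, from 13.79 ± 0.03 and 11.16 ± 0.06 (SD, n = 3) in the controls at 3 h to 13.90 ± 0.04 and 11.37 ± 0.13 (SD, n = 3) with interferon at 6 h, and no neighbours in it differed beyond their spread.

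RT1-N3, a class I gene of the N region, had the largest change among the class I probe sets at both times. Its probe set (1370400_at) read 5.17, 5.11 and 5.36 in the controls at 6 h and 6.65, 7.42 and 7.19 with interferon. At 3 h it read 5.54, 5.01 and 5.81 untreated and 5.68, 6.39 and 6.77 treated. At 6 h all treated arrays lay above all controls, whereas at 3 h the treated replicate 1 lay below the untreated replicate 3. The rise at 6 h was 1.87 ± 0.29, or 3.66-fold with a 95% interval of 2.36 to 5.68, with an adjusted p of 0.0184 in limma and 0.00102 with the block. At 3 h the difference was 0.83 ± 0.29 (adjusted p 1 in limma, 0.398 with the block). Its effect at 6 h minus that at 3 h was 1.04 (95% interval 0.14 to 1.94), with an unadjusted p of 0.0269 and an adjusted p of 1 in limma.

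The call for RT1-N3 rested on each of 5 arrays. Its adjusted p in limma was 0.0806, 0.102 and 0.0649 without untreated replicate 1, 2 or 3 at 6 h, and 0.112 and 0.0827 without treated replicate 2 or 3 at 6 h, and with the block it was 0.0542 when number 3 was left out. The size moved little, from 1.70 to 2.09 with any 1 array left out. The group means of RT1-N3 had the order of those of Nlrc5: 5.21 ± 0.13 (SD, n = 3) in the controls at 6 h, 5.45 ± 0.41 (SD, n = 3) in the controls at 3 h, 6.28 ± 0.56 (SD, n = 3) with interferon at 3 h and 7.08 ± 0.39 (SD, n = 3) with interferon at 6 h. Each group overlaps its neighbour in this order, unlike the groups of Nlrc5.

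RT1-N2, next to RT1-N3 in the order of these genes on assembly GRCr8, differed by replicate number as well as by treatment. Its probe set (1387839_at) read 9.84, 9.97 and 10.85 in the controls at 6 h and 10.70, 11.46 and 12.10 with interferon. At 3 h it read 9.89, 10.35 and 11.20 untreated and 9.99, 10.88 and 11.56 treated. In every group replicate 1 was lowest and replicate 3 highest, so treated and control arrays overlap although each number was higher after interferon. The difference at 6 h was 1.20 ± 0.48, with an adjusted p of 1 in limma. With the block it was 1.20 ± 0.12 (2.29-fold) with an adjusted p of 0.000468 in limma, and at 3 h 0.33 with 0.651. It did not pass with the block when number 3 was left out.

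RT1-S3 was read by 4 probe sets, which gave like values. The probe set 1388164_at read 11.25, 10.72 and 11.55 in the controls at 6 h and 11.64, 11.56 and 12.11 with interferon. Its values at 3 h were 11.18, 10.49 and 11.61 untreated and 11.22, 11.18 and 11.88 treated. At 6 h the lowest treated array lay above the highest control by a small margin, and at 3 h the groups overlap. A further one, 1371123_x_at, read 11.23, 10.59 and 11.25 in the controls at 6 h and 11.56, 11.63 and 11.99 with interferon. Its values at 3 h were 10.88, 10.25 and 11.21 untreated and 10.94, 10.95 and 11.51 treated. Replicate 2 was the lowest control at each time on both probe sets.

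The differences of RT1-S3 at 6 h ran from 0.60 to 0.70 over the 4 probe sets, and those at 3 h from 0.33 to 0.38. None of the 4 passed in limma without the block (adjusted p 1 each). With the block, 1388164_at had an adjusted p of 0.0447 and 1371123_x_at one of 0.0406, while 1388212_a_at had 0.0623 and 1388213_a_at 0.117. With the block and 1 number left out, 1371123_x_at passed without number 1 alone (0.023) and 1388164_at in no case. The probe set 1388212_a_at read 11.30, 10.80 and 11.55 in the controls at 6 h and 11.70, 11.83 and 12.09 with interferon, and 11.17, 10.47 and 11.52 against 11.23, 11.18 and 11.80 at 3 h. Its treated arrays lay above its controls at 6 h and not at 3 h.

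RT1-T24-3, in the region next to RT1-S3, was read by 1388694_at at 6.55, 6.05 and 5.97 in the controls at 6 h and at 7.37, 7.63 and 6.40 with interferon. At 3 h the same probe set read 6.82, 6.26 and 5.60 untreated and 6.70, 6.80 and 6.12 treated. Replicate 3 was lowest in every group, and its treated value at 6 h lay below the untreated replicate 1. The difference at 6 h was 0.95 ± 0.36, with an adjusted p of 1 in limma, and it passed with the block (0.95 ± 0.18, adjusted p 0.0325) but not with the block when any 1 number was left out or with a block within each time. The value at 3 h was 0.31 (0.792 with the block).

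Its neighbour RT1-T24-4, on 1389734_x_at, read 10.76, 10.66 and 11.38 in the controls at 6 h and 11.02, 11.03 and 11.68 with interferon. The arrays at 3 h read 10.87, 10.58 and 11.48 untreated and 10.96, 10.93 and 11.72 treated. Groups overlap at both times. The differences of 0.22 at 3 h and 0.31 at 6 h did not pass with the block (adjusted p in limma 0.639 and 0.133). The third T24 probe set, shared by RT1-T24-3 and RT1-T24-4, had a mean of 3.48, below the lower quartile of every array (3.84 to 3.93).

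RT1-M genes stand at the far end of the complex and include relatives of a mouse class I molecule that presents formylated peptides. The probe set of RT1-M3-1 and the one shared by RT1-M6-1 and RT1-M4 differed by 0.16 and 0.17 at 6 h and by 0.19 and 0.20 at 3 h, and neither passed.

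Of 7 probe sets with an RT1-A symbol, 5 carry RT1-A symbols alone and 0 of these passed without or with the block. The other 2 carry RT1-CE symbols as well, and 1 of them passed with the block. This probe set, 1371078_at, annotated to RT1-A, RT1-CE5, RT1-CE7, RT1-CE11 and RT1-CE13, read 10.20, 9.02 and 9.96 in the controls at 6 h and 10.90, 10.81 and 11.13 with interferon. At 3 h the values were 9.75, 8.98 and 9.83 untreated and 10.02, 10.20 and 10.35 treated. All treated arrays lay above all controls at both times, and replicate 2 was the lowest control each time. The difference at 6 h was 1.22 ± 0.29, or 2.33-fold with a 95% interval of 1.50 to 3.63, with an adjusted p of 0.218 in limma and of 0.0101 with the block. It did not pass with the block when number 3 was left out. At 3 h the difference was 0.67 ± 0.29 (adjusted p with the block 0.508).

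The 5 probe sets of RT1-A symbols alone differed by 0.13 to 0.37 at 6 h, and the second shared with RT1-CE by 0.24. Of these, 1370429_at, annotated to RT1-A, came nearest to the threshold, with 0.37 ± 0.08 and an adjusted p of 0.0567 in limma with the block. None of the 8 probe sets of RT1-CE genes alone passed, and their differences at 6 h ran from -0.03 to 0.25. RT1-CE12 (1388236_x_at) read 12.67, 13.19 and 13.03 in the controls at 6 h and 12.72, 13.39 and 13.30 with interferon. At 3 h it read 12.72, 13.16 and 13.09 untreated and 12.80, 13.27 and 13.22 treated. Replicate 1 was lowest throughout and the groups overlap. The difference was 0.18 ± 0.21 at 6 h (95% interval -0.28 to 0.64; with the block 0.02 to 0.33 and an adjusted p of 0.545 in limma).

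**Figure D2:**
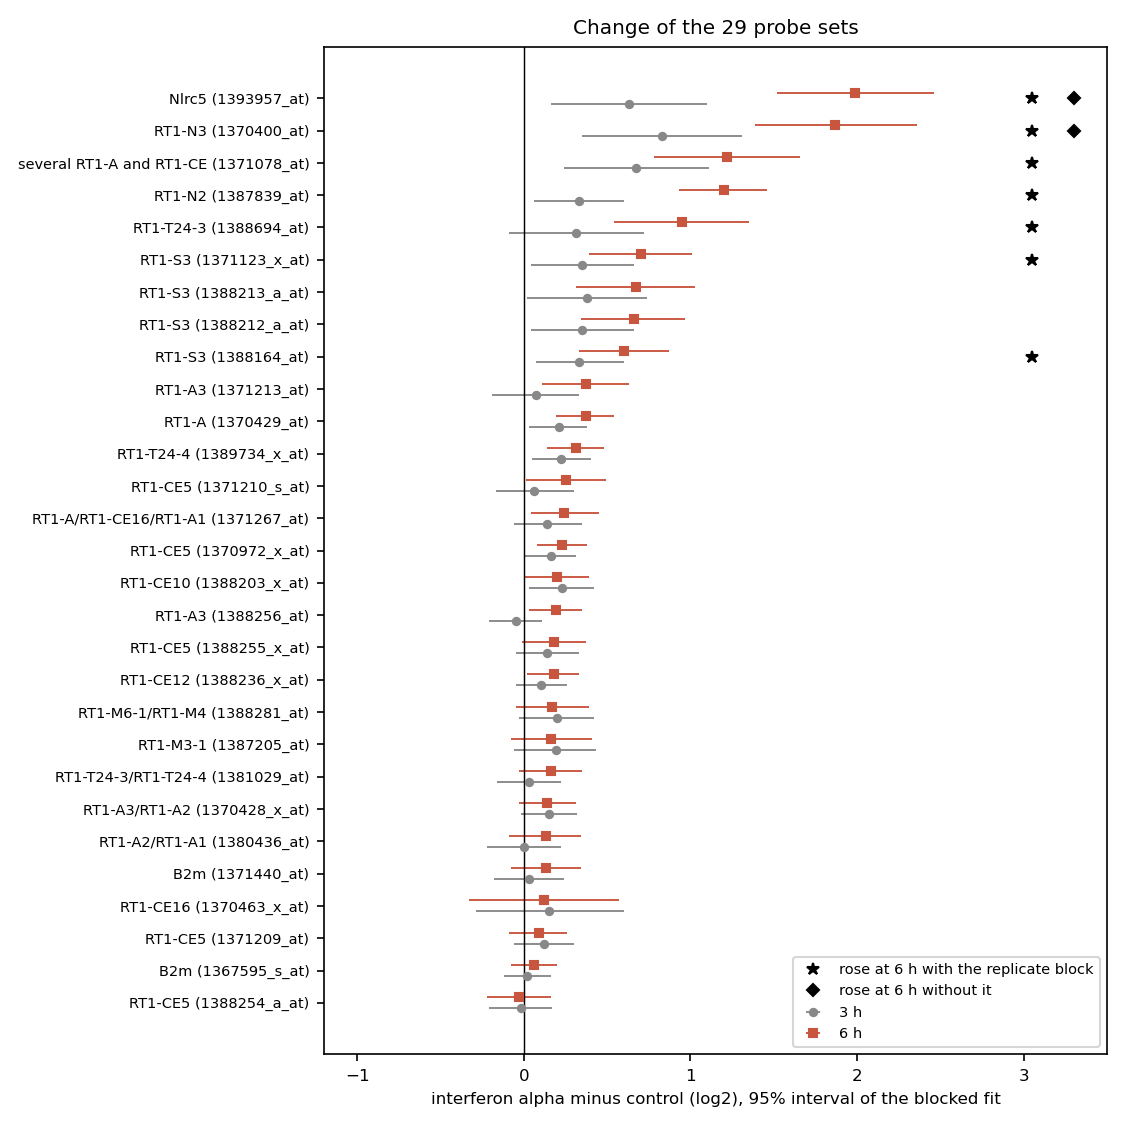
Difference between interferon alpha and control (x axis, log2) for the 29 probe sets (y axis, ordered by the difference at 6 h), at 3 h (grey) and 6 h (red), with 95% intervals of the blocked fit. Diamonds mark the 2 probe sets that rose at 6 h without the replicate block and stars the 7 that rose with it. The other 2 RT1-S3 probe sets lie between starred rows in this order but did not pass and carry no star.

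At 6 h, 2 of the 29 probe sets rose in limma, where 0.387% of all probe sets rose. With the block 7 of 29 rose, where 1.06% of all did: those of Nlrc5, RT1-N3, RT1-N2 and RT1-T24-3, 2 of RT1-S3 and the shared probe set 1371078_at. With the block, 4 passed when number 2 was left out, 5 when number 1 was, and 0 when number 3 was. In these same fits 127, 291 and 100 of all probe sets passed, in either direction. The 9 probe sets whose treated arrays all lay above the controls at 6 h, with 4.29% of all probe sets, were those of Nlrc5 and RT1-N3, the 4 of RT1-S3, 1371078_at, and 2 dim ones, 1388256_at of RT1-A3 and 1381029_at of RT1-T24-3 and RT1-T24-4. Each replicate number was higher after interferon on 26 of 29, with 13.2% of all. Several of the 29 read the same gene or related genes, so such counts are not counts of separate genes. At an unadjusted p under 0.05 in either direction there were 9 of 29 without the block, with 3.69% of all, and 18 with it, with 8.18% of all. The median difference at 6 h was 0.23 over the 29 and -0.02 over all probe sets.

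At 3 h, 0 of 29 rose in limma, where 0.00644% of all did, and 0 with the block, where 0.0934% did. At an unadjusted p under 0.05 in either direction there were 3 of 29 without the block, with 2.95% of all probe sets, and 12 with it, with 6.75% of all. The treated arrays lay above all controls on 2 of 29 (Nlrc5 and 1371078_at), with 4.53% of all, and each number was higher after interferon on 17 of 29, with 14.4% of all. The median difference was 0.16 over the 29 and -0.01 over all.

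The test of 6 h against 3 h called 0 of 29 in limma without and with the block, and 0% of all probe sets, so no effect is shown to be larger at one time. At an unadjusted p under 0.05 there were 3 of 29 without the block (Nlrc5, RT1-N3 and the dim 1388256_at of RT1-A3), with 2.17% of all, and 5 with it, which added RT1-N2 and RT1-T24-3, with 4.72% of all. In untreated culture, 6 h against 3 h, 0 of 29 changed in limma, where 0.190% of all did, and 0 with the block, where 8.15% did. At an unadjusted p under 0.05 there were 0 of 29 without the block, with 10.1% of all, and 1, Nlrc5, with it, with 21.9% of all. From 3 h to 6 h the control mean of Nlrc5 differed by -0.50 (95% interval with the block -0.97 to -0.03), that of RT1-N2 by -0.26 and that of RT1-N3 by -0.24.

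Levels of many class I probe sets differed between replicate numbers. By an F test in the blocked fit, chosen after values were seen, 18 of 29 differed between numbers in limma, where 29.9% of all probe sets did. The 3 numbers had the same order in all 4 groups on 9 of 29, with 11.1% of all. None of the 3 probe sets of Nlrc5 and B2m was among the 18, and the means of the numbers differed by 0.43 for Nlrc5 and by 0.06 and 0.18 for B2m.

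The 3 probe sets with the widest range, also chosen after values were seen, were of RT1-CE16, RT1-CE10 and RT1-A3. RT1-CE16 (1370463_x_at) had means over 4 arrays of 9.28, 8.68 and 4.98 in replicates 1, 2 and 3, a 19.7-fold range. RT1-CE10 (1388203_x_at) had 7.97, 11.78 and 8.43, a 14.0-fold range. RT1-A3 (1371213_at) had 9.48, 5.92 and 6.15, an 11.8-fold range. Each time 1 number stood apart, a different one for each gene: number 3 was low for RT1-CE16, number 2 high for RT1-CE10 and number 1 high for RT1-A3. In order of this range over all 31042 probe sets they ranked 10, 12 and 17. Their differences with interferon at 6 h were 0.12, 0.20 and 0.37, and none passed.

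**Figure D3:**
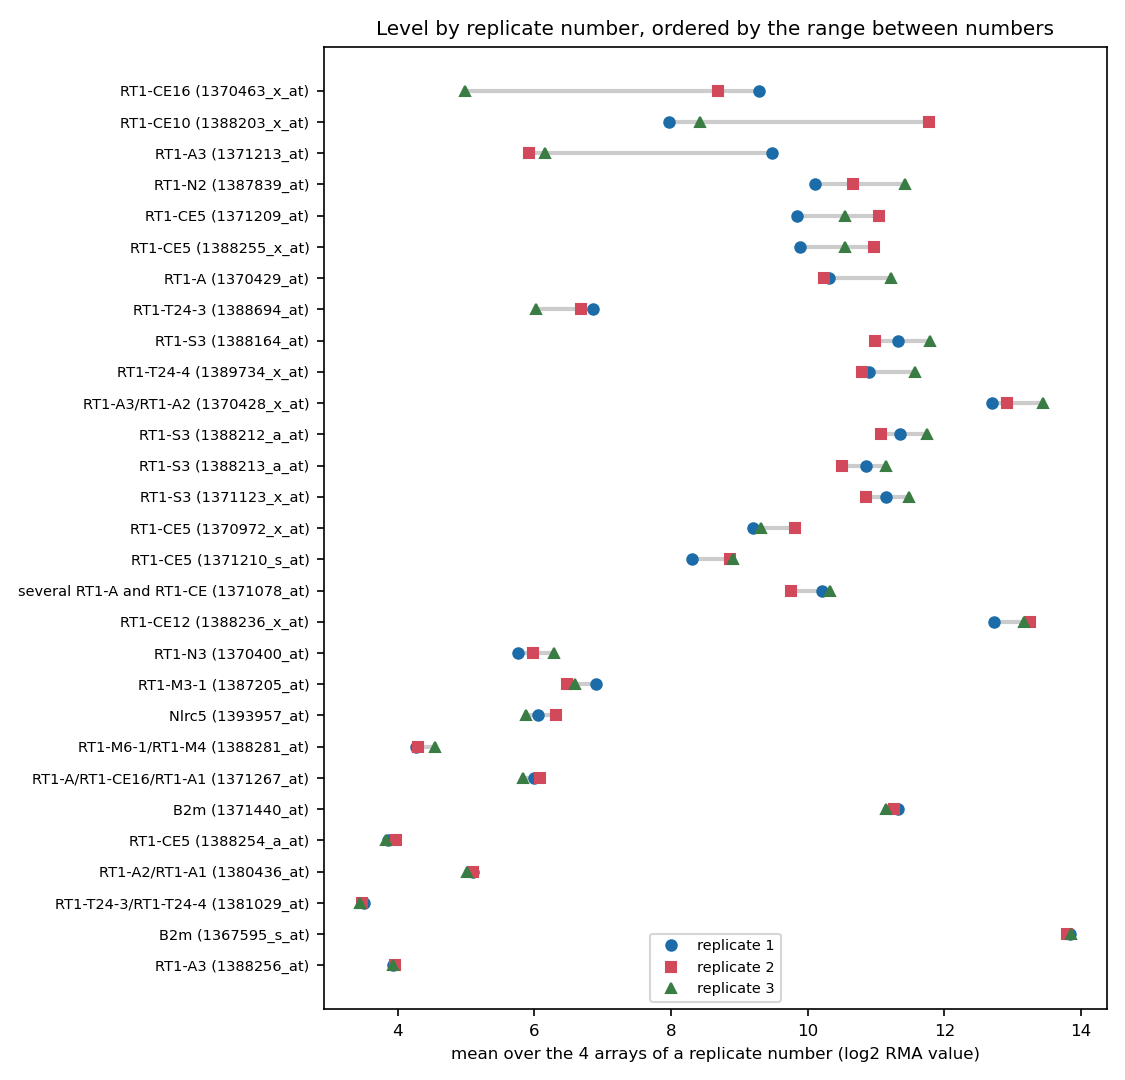
Mean log2 RMA value over the 4 arrays of each replicate number (x axis) for the 29 probe sets (y axis, ordered by the range between numbers, with the widest at the top). RT1-CE16 is low in number 3, RT1-CE10 high in number 2 and RT1-A3 high in number 1, while the B2m points lie on each other.

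Some markers of other cells moved with the replicate number too, not all in the same order, and their part in these levels was not tested. The summed level of 8 MHC class II genes, which mark antigen-presenting cells, was 10.08 to 10.30 in replicate 1, 9.26 to 9.37 in replicate 2 and 8.57 to 8.76 in replicate 3. Of the 8, 7 differed between numbers, where 29.9% of all probe sets and 4 of 9 hepatocyte genes did. Cd74, the class II invariant chain, had means of 8.91, 7.13 and 5.76. Of 7 listed markers of dendritic cells and other class II-bearing cells, 5 differed. Itgax and Flt3, the members that are not class II genes, did not, with means over all arrays of 4.51 and 5.16. The summed level of 10 Kupffer cell and macrophage markers was 12.78 to 12.91, 12.41 to 12.56 and 12.07 to 12.33, and 9 of 10 differed. This sum is weighted to the brightest markers, Cd14 and Lyz2, with means of 11.90 and 10.54. Clec4f, a Kupffer cell lectin, had means of 6.56, 5.17 and 5.53, and C1qa of 6.98, 4.65 and 5.25. Cd68 had 7.40, 5.98 and 7.47. It was highest in replicate 3, while 9 of the 10 were highest in replicate 1. Of 10 markers of lymphocytes and natural killer cells, 0 differed, with means between 3.15 and 4.75. Of 5 liver endothelial markers 3 differed, and 4 were highest in replicate 1. Of 7 stellate cell and fibroblast markers 2 differed, and 4 were highest in replicate 3. Of 3 cholangiocyte markers 1 differed, Epcam. Their summed level was lowest in replicate 1, at 10.76 to 10.97, against 11.55 to 11.72 in replicate 2 and 11.23 to 11.57 in replicate 3. The class I probe sets did not share 1 order, since of the 18 that differed between numbers 4 were highest in replicate 1, 5 in replicate 2 and 9 in replicate 3. In bulk RNA, fewer cells of a type and less RNA per cell cannot be told apart. No marker list of another cell type had a member called at either time, where 0.387% of all probe sets rose at 6 h, and 1.06% with the block.

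Genes that supply and load class I peptides were read on the probe set of each with the highest mean. Of 15, 13 were measured, and at 6 h 1 rose in limma, 7 rose with the block and 0 fell. Over all probe sets 0.387% rose, and 1.06% with the block. The median difference was 0.44, against -0.02 over all probe sets. Tap1, a subunit of the peptide transporter of the endoplasmic reticulum and itself a known NLRC5 target, rose by 2.35 ± 0.27 (adjusted p in limma 0.00325), from a mean of 7.94 to 10.29. With the block its partner Tap2 rose by 0.82 (adjusted p in limma 0.000939) and Tapbp, the tapasin that bridges class I and the transporter, by 0.54 (0.00984). The immunoproteasome subunits Psmb9, Psmb10 and Psmb8 rose with the block by 1.33, 0.76 and 0.74, and the proteasome activator subunit Psme2 by 0.44. The general chaperones Calr, Canx and Pdia3 differed by -0.05, -0.01 and -0.05 and did not pass. At 3 h, 0 of the 13 passed without or with the block, where 0.00644% and 0.0934% of all probe sets rose, with a median of 0.13.

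Of the transcription factors that act at class I promoters, 13 of 14 were measured. At 6 h 3 rose in limma, 5 with the block and 0 fell, where 0.387% and 1.06% of all probe sets rose without and with the block. Irf7, a factor induced by interferon, rose by 3.11 ± 0.36 (adjusted p in limma 0.00325), and Stat2 and Irf9, parts of the complex that binds the response element, by 1.51 and 1.20 (0.00981 and 0.0209). With the block alone Irf1 rose by 2.22 (adjusted p in limma 0.00203), as did Rfx5, a DNA-binding partner of NLRC5, by 0.65 (0.0441). The other RFX subunits Rfxap and Rfxank differed by -0.12 and 0.08 and did not pass, nor did the NF-Y subunits Nfya, Nfyb and Nfyc at 0.11, -0.10 and 0.01. At 3 h Irf1 alone passed, with the block only, at 2.24 (0.0218 in limma), where 0.0934% of all probe sets rose with the block.

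Gene groups related to class I by function or by fold held no call at either time, without or with the block in limma. Over all probe sets 0.387% rose at 6 h, and 1.06% with the block, so few or no calls are the usual outcome for groups this small. Of 8 measured MHC class II genes 0 passed, with a median of 0.02 at 6 h, and Ciita, the class II counterpart of Nlrc5, differed by -0.03. The mean of Ciita was low, at 4.20, against lower quartiles of the arrays of 3.84 to 3.93. Of 5 measured class I-like genes outside the RT1 symbols 0 passed; the 2 with the highest means were Azgp1 and Fcgrt, the neonatal Fc receptor chain that also pairs with B2m, which differed by -0.03 and -0.01. Of 4 measured NOD-like receptor relatives of Nlrc5 0 passed, and Nlrx1 and Nod1 differed by -0.10 and 0.22. Nlrp6, with a mean of 3.86, read within the range of those lower quartiles.

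**Figure D4:**
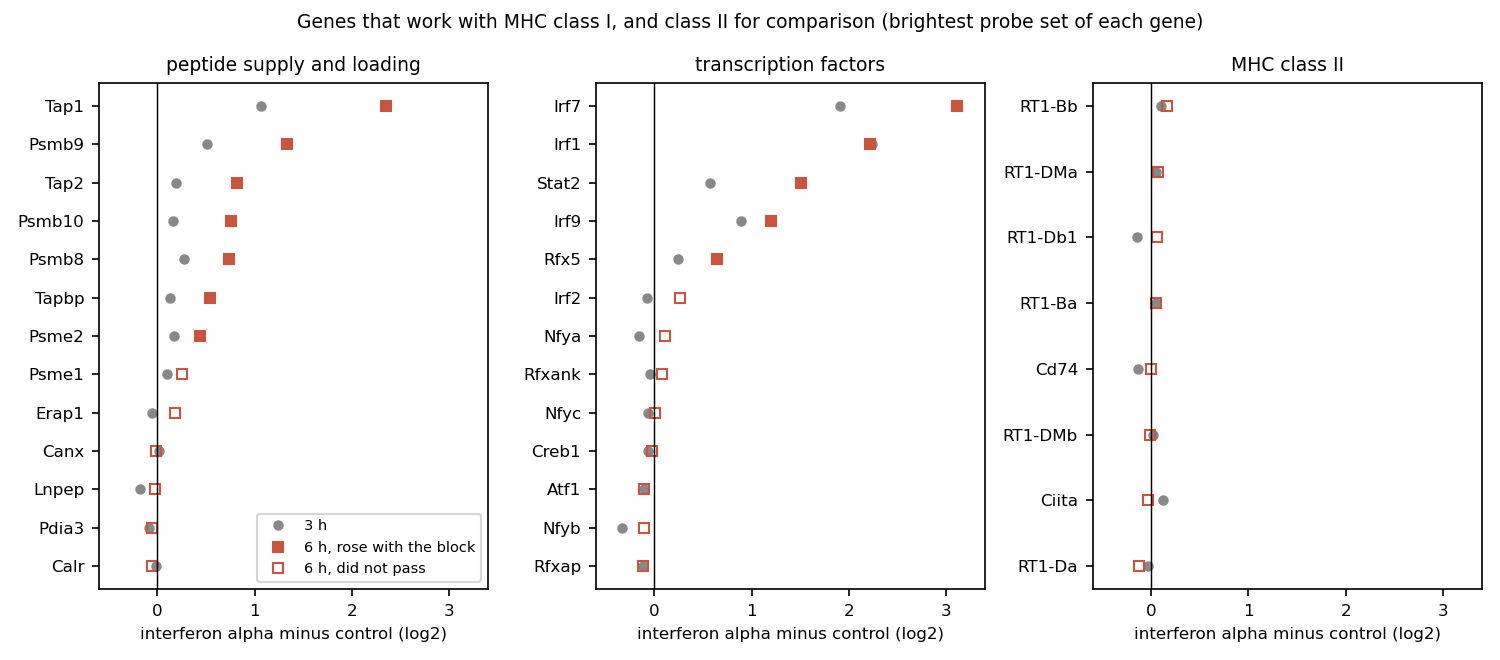
Difference between interferon alpha and control (x axis, log2) for genes of peptide supply and loading, transcription factors and MHC class II (panels; 1 row per gene), at 3 h (grey circles) and 6 h (squares, filled where the gene rose with the replicate block). Tap1 at 2.35 and Irf7 at 3.11 lead their panels, and no class II gene is filled.

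The genes whose values were most like those of Nlrc5 across the 12 arrays, among 13969 candidates outside the RT1 rule, were Kiaa0232, Mpeg1, Parp12, Nub1 and Fbxw17, with Pearson correlations from 0.97 to 0.98. Those most like RT1-N3 were Trim34, Ogfr, Eif2ak2, Trim5 and Igtp, also from 0.97 to 0.98. For the brighter B2m probe set they were Khnyn, Foxo4, Uri1, Htr7 and Nfkb1, from 0.87 to 0.91. The arrays share treatment groups and replicate numbers, so these are descriptions over 12 points. Between Nlrc5 and RT1-N3 the correlation was 0.90, between B2m and RT1-N3 0.58 and between Nlrc5 and B2m 0.38.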

How the data were processed

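Total RNA was hybridised to 12 Affymetrix rat arrays. The authors deposited log2 values per probe set. The submitters' processing notes name RMA, the package affy and R 2.10.0. RMA gives all arrays the same intensity distribution, which hides a change common to most transcripts. Which probe set definition was used is not stated in the labels. Groups and replicate numbers came from the labels' titles.

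The 57 control probe sets were left out. Symbols came from the platform annotation: 20826 tested probe sets have 1 symbol, 436 several and 9780 are unnamed here. Of the first, 20758 were found in RefSeq's gene table for GRCr8, from which names, gene order and promoter sequence were taken. No array pair held identical values (0 pairs), and 3 arrays a group limit the precision.

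All 4 groups were fitted at once with limma 3.58.1 (lmFit, eBayes) in R 4.3.3, with 8 residual degrees of freedom, or 6 with the replicate number as a block. P-values are two-sided and Benjamini-Hochberg adjusted over 31042 probe sets, and called means an adjusted p under 0.05; rose and fell are used for called values only. The fit was tested on simulated data. Deviations from group means correlated at 0.479 to 0.829 between arrays of the same number and at -0.652 to -0.0747 between different numbers. The deviations within a group cancel out, which draws values between different numbers of a group below zero in any case. By the values for the same number, the numbers pair the arrays, and blocked values are given where they change a call. That pairing comes from the data; the labels state biological replicates only.

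The genes, lists and tests were chosen with earlier results of these data known. Values per array are given for the Nlrc5 and B2m probe sets, every class I probe set called without or with the block, the class I probe set with the highest mean and, of those with 1 symbol, the 2 next. List genes are read on the probe set with the highest mean, with called members named or, failing any, the 2 brightest. A list's summed level is the log2 of its members' summed linear values. Other choices tried were a block within time, limma-trend, a filter on low means, equal medians, only the arrays compared, and leaving out each array or, after seeing the data, each replicate number.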

Additional observations from a re-analysis of the deposited data

How the results depend on the processing

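The rise of Nlrc5 at 6 h passed under 19 of 21 other settings and that of RT1-N3 under 15 of 21, and 0 of these changed a sign. Among the 29 probe sets, 2 rose at 6 h, 7 with the replicate block, 4 with the block within time, 1 with only the arrays compared, and 5, 4 or 0 with the block when number 1, 2 or 3 was left out. With 1 array left out it was 1 to 2. No setting called any of the 29 at 3 h, for the difference between times or in untreated culture. Over all probe sets the calls at 3 h, 2 in number, came to 30 with the replicate block, 10 with the block within time, 1 with limma-trend, 1 with the filter on low means, 1 with equal medians and 0 with only the arrays compared. They ran from 0 to 23 with 1 array left out, and with the block came to 112, 0 or 0 when number 1, 2 or 3 was left out. At 6 h the 120 calls came to 340 with the block, 341 with the block within time, 69 with only the arrays compared, 56 to 124 with 1 array left out, and 291, 127 or 100 with the block without number 1, 2 or 3. For the difference between times, 0 calls came to 18 with the block without number 1. In untreated culture the 59 calls came to 2529 with the block, 1644 with the block within time, 8 with limma-trend, 2 with only the controls and 2 to 16 with 1 array left out. With the block they came to 660, 581 or 497 without number 1, 2 or 3. Of 48 named values under their other settings, 936 outcomes kept their side of the threshold and their sign, 8 lost a call, 12 gained one and 40 changed sign, each of the last for a value that was not called. With 1 array left out, such differences at 3 h ran from -0.02 to 0.08 for B2m (1371440_at), -0.04 to 0.74 for RT1-N2, 0.00 to 0.61 for RT1-T24-3, -0.03 to 0.25 for RT1-CE12 and -0.04 to 0.48 for RT1-T24-4. The difference between times ran from -0.01 to 0.20 for B2m (1371440_at), -0.08 to 0.28 for RT1-CE12 and -0.16 to 0.35 for RT1-T24-4. In untreated culture they ran from -0.02 to 0.19 for B2m (1371440_at), -0.57 to 0.10 for RT1-N2, -0.06 to 0.56 for 1371078_at, -0.35 to 0.26 for RT1-T24-3, -0.17 to 0.12 for RT1-CE12, -0.27 to 0.21 for RT1-T24-4, and -0.22 to 0.34, -0.02 to 0.46 and -0.13 to 0.39 for RT1-S3 on 1388164_at, 1371123_x_at and 1388212_a_at. With the block and a number left out, B2m (1371440_at) gave -0.05 at 3 h without number 2, -0.01 for the difference between times without number 3 and -0.02 in untreated culture without number 1. RT1-T24-3 gave 0.08 and 0.05 in untreated culture without number 1 or 2. The cause was not tested; settings with fewer arrays also have fewer degrees of freedom. Of the 29 probe sets, 24 passed the filter on low means, and for the 3 with means under 4, RT1-CE5 on 1388254_a_at (3.89), RT1-A3 on 1388256_at (3.94) and 1381029_at (3.48), signal near the lower quartile of the arrays limits what could be seen.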

Other observations

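In the order of the 18 class I genes placed on GRCr8 chromosome 20, RT1-N2, RT1-N3, RT1-S3, RT1-T24-4 and RT1-T24-3 stand at places 4 to 8, between the RT1-M genes at places 1 to 3 and the RT1-CE genes from place 9 on. Of the 7 probe sets that rose at 6 h with the block, 5 belong to RT1-N2, RT1-N3, RT1-S3 and RT1-T24-3, and 1 is annotated to RT1-A and RT1-CE genes together. By family, 2 of 2 RT1-N, 2 of 4 RT1-S and 1 of 3 RT1-T24 probe sets rose, where 1.06% of all probe sets did. So did 1 of 7 with an RT1-A symbol, 0 of 8 of RT1-CE alone and 0 of 2 of RT1-M. At that share of all probe sets, 0 calls are the usual outcome for families this small. RT1-T24-4 on 1389734_x_at, at place 7, did not pass (adjusted p in limma with the block 0.133). With the block and number 3 left out, 0 of the 29 passed, where 100 of all probe sets did, in either direction. This grouping was seen in the data and was not tested.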
